A study of Rattus norvegicus with 6 samples.

Results

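A set of 10 enzymes of proline, hydroxyproline and glyoxylate metabolism and of D-amino acid oxidation was followed in rat kidney: Prodh, Prodh2, Pycr1, Aldh4a1, Hoga1, Grhpr, Hao2, Agxt2, Dao and Ddo. They were chosen by name, with earlier results of these data known, and all 10 were among the 17051 genes measured. RNA was sequenced from kidney tissue of 6 male Sprague Dawley rats, each a separate library. The 3 rats of the AL group (rats 61, 71 and 88) ate standard laboratory chow powder ad libitum. The 3 rats of the HD group (rats 64, 67 and 69) received a pre-hyperammonemic diet, in which an amino acid mixture modeled on the composition of hemoglobin was added to the chow powder. Both diets lasted a week and ended in surgery under isoflurane anesthesia. The methods do not say whether the mixture held hydroxyproline or D-amino acids. The comparison asks how the transcripts of enzymes that break down proline, hydroxyproline and D-amino acids, or handle glyoxylate, differ between the diets. The methods name a halved kidney as the source of RNA for PCR and do not repeat this for sequencing.

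Proline is oxidized in mitochondria by proline dehydrogenase, Prodh, and its hydroxylated form, which comes from collagen, by hydroxyproline dehydrogenase, Prodh2. Aldh4a1 serves both routes at the next step, and the hydroxyproline route then continues through the aldolase Hoga1, which releases glyoxylate and pyruvate. Glyoxylate is a precursor of oxalate, the anion of most kidney stones, and Grhpr and aminotransferases remove it. The proximal tubule, which reabsorbs filtered amino acids, is a main site of these enzymes and of the peroxisomal oxidases Hao2, Dao and Ddo.

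Prodh2 and Agxt2 stood out among the enzymes. Prodh2 was 2.56-fold higher on the HD diet (log2 fold change 1.35 ± 0.33, SE) and Agxt2 1.47-fold (0.55 ± 0.13, SE), with every HD rat above every AL rat in both. Aldh4a1 was 1.30-fold higher and its groups did not overlap either, whereas Prodh was level (0.99-fold). None of the 9 enzymes that could be tested passed an adjusted *P* value of 0.05 in edgeR's quasi-likelihood test with Benjamini-Hochberg adjustment, nor did any of the 11553 tested genes (0.0%), of which 1224 had an unadjusted *P* below 0.05. By DESeq2, Prodh2 and Agxt2 passed the adjusted threshold, as did 0.805% of tested genes on the higher side and 182 genes in both directions.

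The 250 bases before the start of both genes are shown, because these 2 genes carried the clearest differences between the diets. The sequences come from RefSeq on build GRCr8, which differs from the build of the counts, rn5. Capitals mark every match to a searched motif on either strand. The motifs were GTTAAT, a short form of the site of the tubule and liver factor HNF1; CAAAGTCCA, a site of HNF4; TATAAA, the TATA box; GGGCGG, the GC box; and a direct repeat of AGGTCA with 1 base between the copies.
Prodh2, chr1:94880837-94881086, plus strand: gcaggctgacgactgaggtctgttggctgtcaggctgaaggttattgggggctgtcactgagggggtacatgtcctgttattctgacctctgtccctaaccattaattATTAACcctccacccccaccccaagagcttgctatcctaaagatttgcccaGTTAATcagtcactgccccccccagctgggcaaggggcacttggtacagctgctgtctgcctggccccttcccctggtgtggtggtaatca
Agxt2, chr2:61063166-61063415, plus strand: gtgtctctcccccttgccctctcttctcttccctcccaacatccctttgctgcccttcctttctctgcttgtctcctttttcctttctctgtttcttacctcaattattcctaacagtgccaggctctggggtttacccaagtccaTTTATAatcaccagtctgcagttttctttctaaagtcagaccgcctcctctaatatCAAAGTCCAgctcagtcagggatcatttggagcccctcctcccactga

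In Prodh2, GTTAAT was matched on the minus strand at 142 to 137 bases before the start and on the plus strand at 91 to 86 bases. Of all 27457 promoters of that length, 6.46% held it, and Prodh2 was the 1 gene of the 9 enzymes in the RefSeq table that did. In Agxt2, CAAAGTCCA was matched at 48 to 40 bases before the start, and 0.331% of all promoters and no other enzyme of the set held it. The letters TATAAA were matched in Aldh4a1, Hao2 and Agxt2 (13.1% of all promoters), in Agxt2 on the minus strand at 104 to 99 bases, and GGGCGG in Hoga1 and Grhpr (32.4%). The direct repeat was in none of the 9 and in 0.0546% of all promoters. These matches describe the letters in the window and do not show binding. No promoter was printed for Prodh, which had no entry in the table.

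Levels between genes were compared as TPM, a measure of transcript abundance relative to all transcripts of a library, which account for transcript length. Hao2 was the most abundant of the enzymes, with a mean of 6583 TPM over the 6 rats (5167 to 7771). It was followed by Dao with 1906 TPM (1572 to 2113) and Agxt2 with 1239 TPM (923 to 1475). These 3 genes stood at the 99.96th, 99.71st and 99.17th percentile of all genes. Grhpr (775 TPM) and Hoga1 (739 TPM) came next and could not be ordered, since Grhpr was above Hoga1 in 4 of 6 rats. The ranges of Agxt2 and Grhpr also overlapped, although Agxt2 was above Grhpr in all 6 rats. Aldh4a1 reached 199 TPM (150 to 245).

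The dehydrogenases that open both routes were less abundant than the enzymes that follow them. Prodh had a mean of 56.3 TPM (39.7 to 79.2) and Prodh2 of 40.3 TPM (17.1 to 72.5), and their ranges overlapped. Ddo had 21.5 TPM (17.1 to 25.8), below Prodh2 in 5 of 6 rats. Pycr1, which makes proline from pyrroline carboxylate and lies on chromosome 10 (109411300 to 109414609, rn5, minus strand, 7 exons), was near 0 with 0.153 TPM. Its estimated counts were 1, 0 and 1 in the AL rats and 2, 4 and 1 in the HD rats, too few for a test. The 10 genes together held 0.975% to 1.12% of all TPM in the AL rats and 1.07% to 1.34% in the HD rats, and Hao2 alone made up 49.1% to 61.8% of that sum.

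**Figure D1:**
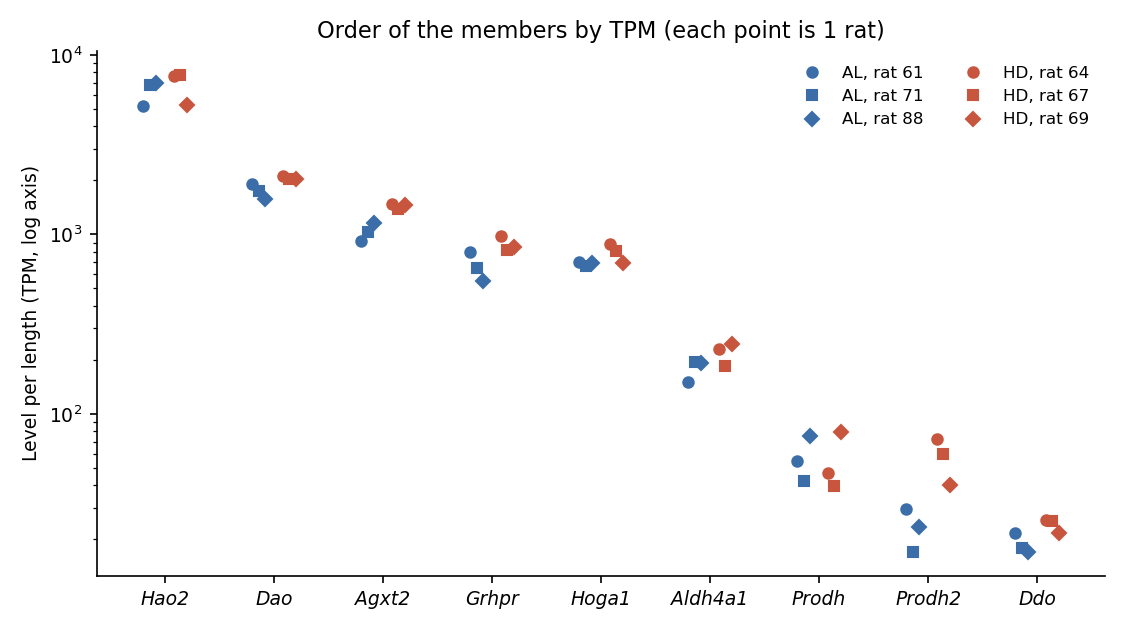
Level per transcript length of 9 enzymes in each rat, in TPM on a log axis, ordered by the mean over the 6 rats. Each point is 1 rat, blue for AL and red for HD. Hao2 lies at 5167 TPM or more in every rat and Ddo at 25.8 TPM or less, and Pycr1, at 0.33 TPM or less, is not drawn.

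For the comparison of the diets, counts were scaled to CPM, the share of a library's counts taken by a gene, with TMM library factors, and all fold changes below are HD over AL on the log2 scale with their SE. Total estimated counts ranged from 12499945 (rat 64) to 30466461 (rat 69), so rat 69 was measured most deeply, and every tested enzyme had at least 168 estimated counts in each rat. Over all tested genes the median was 0.01 with TMM factors and -0.07 with library size alone. *P* values set the difference between the diets against the spread between rats, 3 per group. The spread estimated for a gene also drew on the other tested genes. In bulk tissue, fewer cells of a type and less RNA per cell cannot be told apart.

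Prodh, the proline dehydrogenase on chromosome 11 (90150469 to 90167638, rn5, plus strand, 14 exons), did not differ between the diets beyond its spread. It stood at 82.3, 53.5 and 101.3 CPM in the AL rats 61, 71 and 88, and at 68.8, 59.3 and 106.7 CPM in the HD rats 64, 67 and 69. Both groups spanned nearly the same range, with rat 71 lowest and rat 69 highest. The log2 fold change was -0.01 ± 0.29 (edgeR adjusted *P* = 0.993), and it ranged from -0.30 to 0.22 when single rats were left out. The gene Dgcr6 ends 420 bases beyond Prodh on the opposite strand, and the library kit does not mark strand. Dgcr6 had 69.4, 49.6 and 73.5 CPM in the AL rats and 53.0, 55.0 and 80.2 CPM in the HD rats. The rats stood in nearly the same order for both genes, apart from a swap of rats 64 and 67. Their annotated exons share 0 bases.

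Prodh2, the hydroxyproline dehydrogenase on chromosome 1 (90110667 to 90123506, rn5, plus strand, 8 exons), had the largest fold difference of the enzymes. Its level was 20.6, 9.92 and 14.6 CPM in the AL rats and 49.2, 41.1 and 25.0 CPM in the HD rats. All HD rats lay above all AL rats, but rat 69 lay closer to rat 61 of the AL group than to its own group's highest value. The AL rats averaged 15.04 ± 5.34 CPM (SD, n = 3), and the HD rats averaged 38.4 ± 12.4 CPM (SD, n = 3). The log2 difference of 1.35 ± 0.33 had an adjusted *P* of 0.368 by edgeR and of 0.00953 by DESeq2. With single rats left out it ranged from 1.13 to 1.64. Prodh2 ranked 118th of all tested genes by edgeR's *P*, and 76th by DESeq2's.

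The neighbour of Prodh2 is Nphs1, which encodes nephrin of the podocyte slit diaphragm and ends 4242 bases before Prodh2 on the same strand. Nphs1 stood at 9.77, 13.9 and 10.8 CPM in the AL rats and at 42.0, 59.1 and 74.8 CPM in the HD rats (log2 fold change 2.35 ± 0.24, edgeR adjusted *P* = 0.0980). Both genes were higher in every HD rat, but within each group their rats stood in opposite order. Rat 64 had the most Prodh2 and the least Nphs1 of the HD rats, and rat 61 the same in the AL group. The annotated exons of the 2 genes share 0 bases. Nphs1 and Dgcr6 were chosen as neighbours after their values had been seen, and the part of either in the level of Prodh2 or Prodh was not tested.

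**Figure D2:**
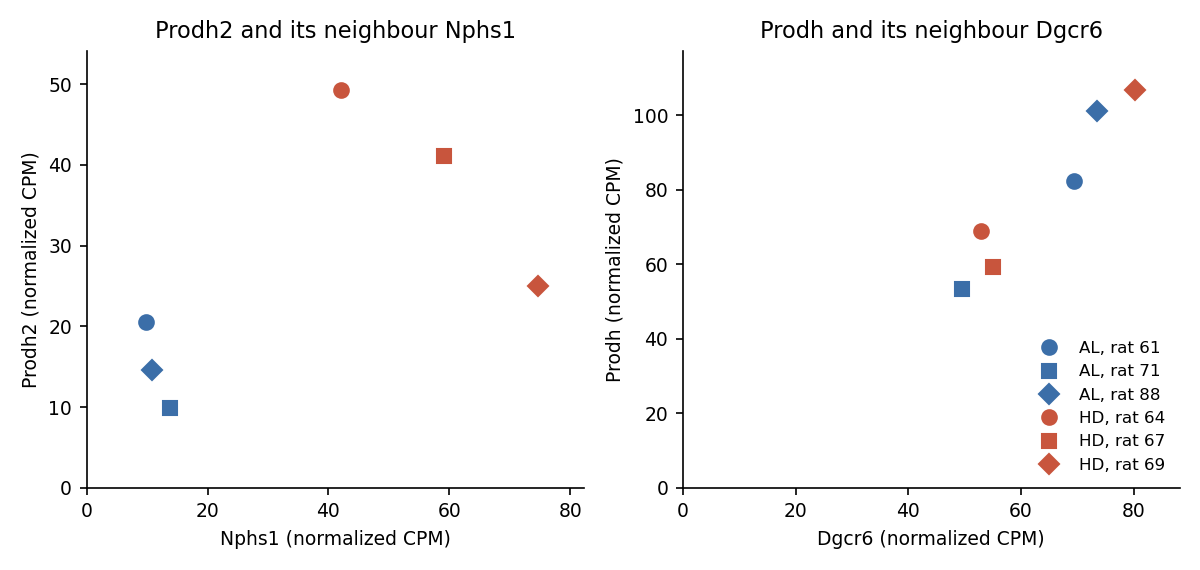
Normalized CPM of Prodh2 against its neighbour Nphs1 (left) and of Prodh against its neighbour Dgcr6 (right), each point 1 rat, blue for AL and red for HD. In the left panel the HD rats lie apart from the AL rats on both axes and slope downward within the group, and in the right panel the diets are mixed along a rising line.

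Aldh4a1, on chromosome 5 (161829323 to 161854796, rn5, plus strand, 15 exons), oxidizes the product of both dehydrogenases. It had 327, 350 and 372 CPM in the AL rats and 485, 398 and 476 CPM in the HD rats. The groups did not overlap in CPM, with rat 67 closest to the AL group. On the log2 scale the difference was 0.37 ± 0.13 (edgeR adjusted *P* = 0.406), and by DESeq2 the adjusted *P* was 0.179. Its unadjusted *P* was below 0.05 with all rats but not without rat 71 or without rat 64, nor with library size alone or with limma on TPM. In TPM the groups overlapped, since rat 67 (185 TPM) lay below rats 71 (193 TPM) and 88 (192 TPM).

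Hoga1, on chromosome 1 (268744342 to 268771456, rn5, plus strand, 7 exons), cleaves the last intermediate of hydroxyproline breakdown to glyoxylate and pyruvate. It had 853, 674 and 755 CPM in the AL rats and 1042, 969 and 752 CPM in the HD rats. Rats 64 and 67 lay above the AL group and rat 69 within it. This gave a log2 fold change of 0.28 ± 0.17 (edgeR adjusted *P* = 0.618).

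Grhpr, on chromosome 5 (65037813 to 65047242, rn5, plus strand, 9 exons), reduces glyoxylate to glycolate. Its level was 690, 466 and 422 CPM in the AL rats and 820, 698 and 651 CPM in the HD rats. Only rat 61 of the AL group reached the HD range, so that 2 of 3 HD rats lay above the whole AL group. The log2 fold change was 0.46 ± 0.21 (edgeR adjusted *P* = 0.491), and DESeq2 gave an adjusted *P* of 0.366.

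The relation between steps was also read within rats, as ratios of TPM. Prodh2 to Hoga1, the first and the last step of hydroxyproline breakdown, was 0.0421, 0.0257 and 0.0338 in the AL rats and 0.0824, 0.0739 and 0.0579 in the HD rats. The groups did not overlap in this ratio, which does not move with library scaling. Prodh2 to Prodh was 0.541, 0.401 and 0.312 in the AL rats and 1.55, 1.499 and 0.506 in the HD rats. Prodh2 transcripts thus outnumbered those of Prodh in rats 64 and 67 but not in rat 69, which lay within the AL range. The ratio of Grhpr to Hao2 overlapped between the groups, with 0.0794 to 0.155 in the AL rats and 0.106 to 0.162 in the HD rats.

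Agxt2, a mitochondrial aminotransferase that can use glyoxylate as an amino acceptor, lies on chromosome 2 (84308289 to 84348804, rn5, minus strand, 14 exons). It had 1220, 1132 and 1363 CPM in the AL rats and 1898, 1823 and 1724 CPM in the HD rats. The HD rats lay closer together than for any other tested enzyme, with a coefficient of variation of 4.80% against 9.43% among the AL rats, and rat 69 was again the lowest of them. The log2 fold change was 0.55 ± 0.13 (edgeR adjusted *P* = 0.368; DESeq2 adjusted *P* = 0.00352). It ranged from 0.49 to 0.63 with single rats left out.

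Hao2, a peroxisomal 2-hydroxy acid oxidase on chromosome 2 (220254690 to 220278103, rn5, plus strand, 9 exons), was the most variable of the abundant enzymes in the HD group. It had 5837, 6384 and 6987 CPM in the AL rats and 8359, 8690 and 5281 CPM in the HD rats. Rats 64 and 67 were the highest of the 6 and rat 69 the lowest. Its log2 fold change of 0.22 ± 0.22 was as large as its SE (edgeR adjusted *P* = 0.794).

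Dao, the peroxisomal oxidase of neutral D-amino acids, lies on chromosome 12 (50135334 to 50157417, rn5, minus strand, 12 exons). It had 2109, 1613 and 1550 CPM in the AL rats and 2276, 2242 and 2019 CPM in the HD rats, with rat 61 inside the HD range. The log2 fold change was 0.31 ± 0.16 (edgeR adjusted *P* = 0.553). Ddo, the corresponding oxidase of D-aspartate on chromosome 20 (50384344 to 50403396, rn5, minus strand, 5 exons), had 15.8, 10.9 and 11.1 CPM in the AL rats and 18.3, 18.3 and 14.2 CPM in the HD rats. Ddo differed by 0.43 ± 0.21 on the log2 scale (edgeR adjusted *P* = 0.521). Rat 61 again lay inside the HD range, and the ratio of Dao to Ddo in TPM, 88.2, 98.1 and 92.2 in the AL rats and 82.0, 81.0 and 94.2 in the HD rats, overlapped between the groups.

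**Figure D3:**
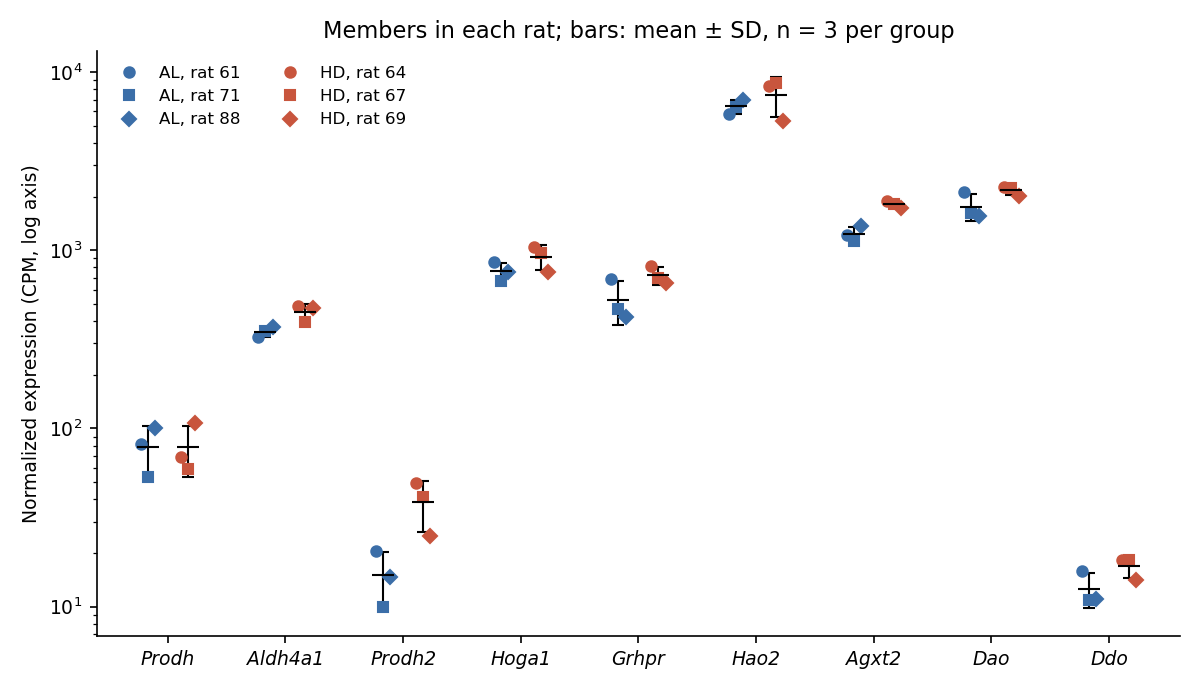
TMM-normalized CPM of 9 enzymes in each rat on a log axis, blue for AL and red for HD, with the mean and SD over 3 rats per group. Prodh2, Agxt2 and Aldh4a1 have all HD points above all AL points, and the groups of the other 6 genes overlap.

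Counted over the set, 8 of 9 tested enzymes had a positive log2 fold change, Prodh being the exception. Of all 11553 tested genes, 5928 had a positive one. Before adjustment, 3 of the 9 (Aldh4a1, Prodh2 and Agxt2) had an edgeR *P* below 0.05 and were higher in the HD group, against 4.66% of all tested genes, and 0 of 9 were lower, against 5.94%. With library size alone there were also 3 (Prodh2, Grhpr and Agxt2), against 2.74% of all tested genes, out of 10.1% in both directions. Aldh4a1, Prodh2 and Agxt2 had every HD rat above every AL rat in CPM, where 7.24% of tested genes did, and 0 of 9 had every HD rat below, where 7.01% did. In TPM, 5 of the 9 had every HD rat above every AL rat (Prodh2, Grhpr, Agxt2, Dao and Ddo), against 4.25% of tested genes. Prodh2 and Agxt2 were thus apart on both scales. The median log2 fold change of the 9 enzymes was 0.37, and that of all tested genes 0.01.

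**Figure D4:**
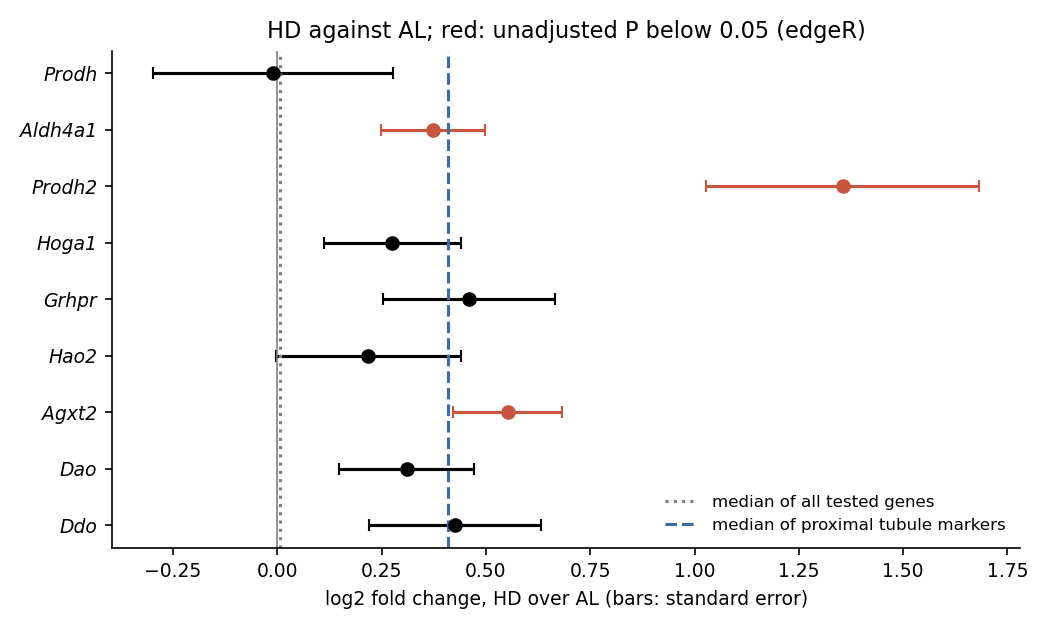
Log2 fold change of each tested enzyme, HD over AL, with bars of 1 SE, in red where the unadjusted edgeR *P* was below 0.05. The dotted line is the median of all tested genes (0.01) and the dashed line that of proximal tubule markers (0.41). Of the 9 enzymes, 4 lie to the right of the dashed line.

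Markers of the proximal tubule had a median difference between the diets close to that of these enzymes. Of 12 listed markers 11 were tested, 10 of them were higher in the HD group, 4 had an unadjusted edgeR *P* below 0.05 and their median log2 fold change was 0.41. Their summed level was 17654 to 18802 TPM in the AL rats and 18608 to 22075 TPM in the HD rats, with rats 64 (21840 TPM) and 67 (22075 TPM) high and rat 69 (18608 TPM) within the AL range. Measured from the marker median, the median of the enzymes was -0.03, and Prodh2, Agxt2, Grhpr and Ddo lay above it. The part of tubule content in the enzymes' values was not tested. Thick ascending limb markers were lower in 4 of 4 genes with a median of -0.15, and 5 of 8 tested distal tubule and collecting duct markers were higher, with a median of 0.13. Podocyte markers were higher in 6 of 6 genes with a median of 1.53 and leukocyte markers lower in 8 of 8 with a median of -1.39. Adipocyte markers were higher in 3 of 3 with a median of 1.33. Summed levels overlapped between the diets for podocyte (18.0 to 65.0 TPM in AL, 50.4 to 113 in HD) and leukocyte markers (280 to 553 and 166 to 413). Adipocyte markers summed to 114 to 186 TPM in the AL rats and to 30.2, 512 and 461 TPM in rats 64, 67 and 69. Markers of hepatocytes, which also carry several of these enzymes, summed to 2.13 to 3.60 TPM in every rat.

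The rats also differed in a way that crossed the diets. Endothelial markers summed to 63.1 TPM in rat 61, 48.5 in rat 64 and 77.3 in rat 67, but to 189, 192 and 173 TPM in rats 71, 88 and 69. Fibroblast and smooth muscle markers divided the rats alike, with 52.5 to 73.0 TPM in rats 61, 64 and 67 and 204 to 222 TPM in the other 3. For Hoga1, Grhpr, Dao and Ddo, 4 of the 9 enzymes, rats 61, 64 and 67 held the 3 highest values in CPM. The share of all tested genes with this pattern is not reported here, so it cannot be read as particular to these enzymes. The pattern also depended on the scale. In TPM the HD rats held the 3 highest values for Grhpr, Dao and Ddo, though for Ddo only narrowly (21.7 TPM in rat 69, 21.6 in rat 61). For Prodh2, Agxt2 and Aldh4a1 the 3 highest values in CPM were those of the HD rats.

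With the endothelial marker level as a covariate beside the diet, an alternative chosen after the data were seen, the log2 fold change of Prodh2 was 1.04 ± 0.18 (edgeR adjusted *P* = 0.101) and that of Agxt2 0.53 ± 0.13 (adjusted *P* = 0.218). Aldh4a1 stood at 0.40 ± 0.13 (adjusted *P* = 0.346) and Grhpr at 0.31 ± 0.13 (adjusted *P* = 0.455). These 4 of 9 enzymes were higher with an unadjusted *P* below 0.05 and compare with 4.9% of all tested genes, and 0 of 9 passed the adjusted threshold, against 0.156%. Of the other 5, Hoga1 stood at 0.14 ± 0.12, Hao2 at 0.11 ± 0.23, Dao at 0.21 ± 0.12, Ddo at 0.28 ± 0.15 and Prodh at 0.06 ± 0.28 in this fit.

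**Figure D5:**
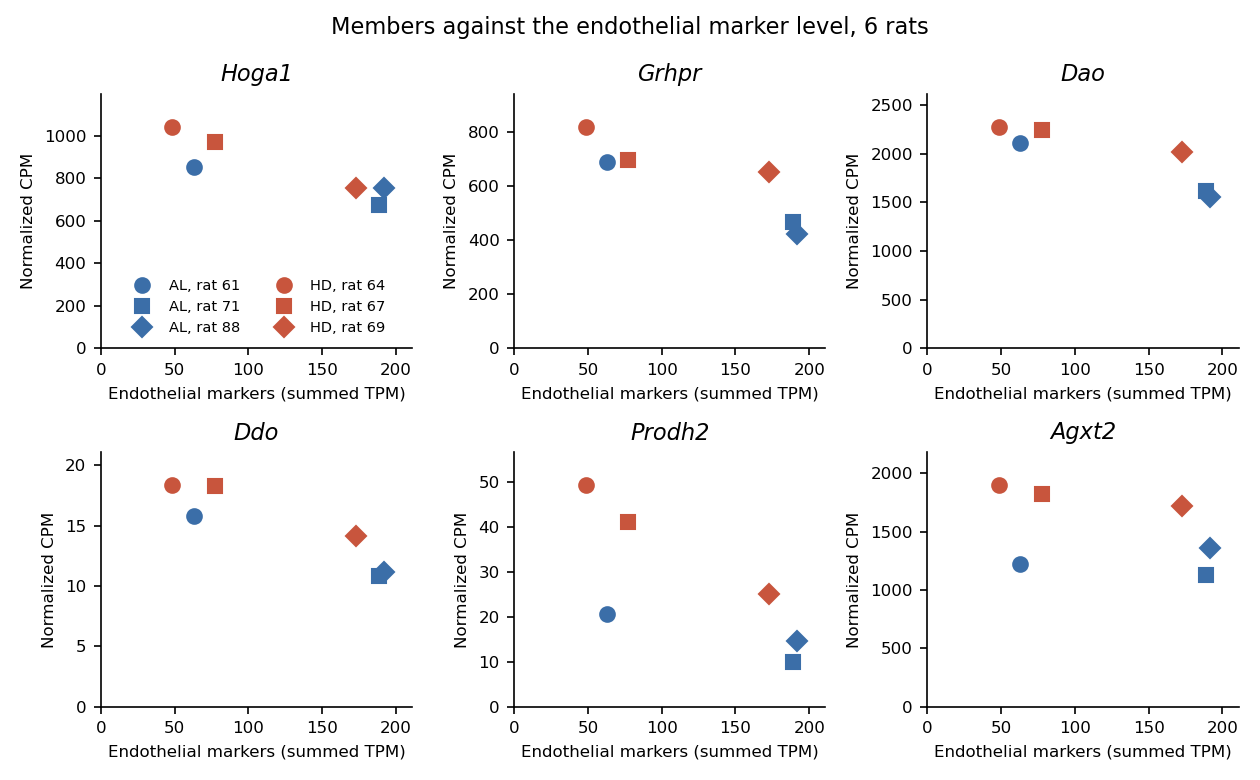
Normalized CPM of 6 enzymes against the summed TPM of 5 endothelial markers, each point 1 rat, blue for AL and red for HD, with both axes from 0. Rats 61, 64 and 67 lie at 77.3 TPM or less and the other 3 at 173 TPM or more. For Hoga1, Grhpr, Dao and Ddo all 3 left points lie above the right ones, and for Prodh2 and Agxt2 the HD points lie above all AL points.

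Single rats contributed unequally. Rat 64 had the highest CPM for 7 of the 9 enzymes, rat 67 for Hao2 and rat 69 for Prodh. Rat 71 had the lowest CPM for 5 of the 9. Without rat 61, 6 of 9 enzymes were higher with an unadjusted *P* below 0.05, but the share of all tested genes that did so was also larger, 6.32% against 4.66% with all rats. Without rat 69 the count was likewise 6 of 9, and the share of all genes 6.21%. Without rat 71 it was 2 of 9 (Prodh2 and Agxt2) beside 4.15% of all genes, and without rat 64 the same 2 beside 2.68%.

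Other genes of proline handling were read from a list of 12, of which 11 could be tested. Of these, 9 were higher and 2 lower, 2 had an unadjusted edgeR *P* below 0.05, both higher in the HD group, and the median log2 fold change was 0.14. Slc6a20, a proline transporter, had 63.5 ± 1.23 CPM on chow and 92.0 ± 24.0 CPM on the amino acid diet (SD, n = 3; 0.53 ± 0.19, edgeR adjusted *P* = 0.409). Oat, ornithine aminotransferase, which feeds the same pyrroline carboxylate pool, had 1775 ± 201 and 2313 ± 294 CPM (0.38 ± 0.16, edgeR adjusted *P* = 0.459). The next by *P* were the amino acid transporter Slc36a2 (2.88 ± 1.25, edgeR adjusted *P* = 0.473) and P4ha2, a collagen prolyl hydroxylase subunit. Slc36a2 was near 0 and overlapped between the groups, with 0.635, 0 and 0.199 CPM in the AL rats and 0.0849, 2.15 and 3.33 CPM in the HD rats. P4ha2 was lower at 27.5 and 18.5 CPM (-0.57 ± 0.27, edgeR adjusted *P* = 0.513). Aldh18a1, a synthesis enzyme, stood at 6.13 ± 1.23 and 7.24 ± 0.125 CPM and overlapped between the groups.

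Of 20 listed genes of glyoxylate, peroxisomal oxidases and oxalate exchange, 16 could be tested. Of these, 12 were higher and 4 lower, 3 had an unadjusted edgeR *P* below 0.05, all higher in the HD group, and the median log2 fold change was 0.22. Slc26a1, a sulfate and oxalate exchanger, had 102 ± 14.2 CPM on chow and 165 ± 37.8 CPM on the amino acid diet (SD, n = 3; 0.70 ± 0.19, edgeR adjusted *P* = 0.398). Xdh, the xanthine oxidoreductase, had 39.3 ± 8.38 and 51.9 ± 2.99 CPM (0.40 ± 0.17, edgeR adjusted *P* = 0.460). After the 3 genes below 0.05, the next by *P* was Got2, mitochondrial aspartate aminotransferase, which can act on the hydroxyproline route. Got2 had 355 ± 37.6 and 422 ± 23.7 CPM (0.25 ± 0.12, edgeR adjusted *P* = 0.531), with every HD rat above every AL rat. Catalase, which degrades the hydrogen peroxide of Hao2, Dao and Ddo, had 2116 ± 322 and 2563 ± 487 CPM and overlapping groups. The liver enzyme of glyoxylate transamination, Agxt, was at a count of 0 in every rat, which allows at most 0.0985 to 0.240 CPM per rat (3 counts of the rat's total, counting error only).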

How the data were processed

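Kidney RNA of 6 rats was poly(A)-selected and sequenced single-end, 1 library per rat. The authors quantified transcripts with RSEM 1.1.15 at default parameters, with UCSC gene definitions on rn5, and deposited an estimated count (expected count) and a TPM value for each transcript. A posterior mean of the count, also deposited, served as an alternative, and FPKM values were not used here. Per gene, estimated counts were summed and rounded, and genes with at least 30 counts in at least 1 rat were tested. Each of the 10 enzymes had 1 transcript.

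Diets were compared with edgeR 4.0.16 (R 4.3.3; glmQLFit, TMM; common biological coefficient of variation 0.242), with Benjamini-Hochberg adjustment over all tested genes and a threshold of 0.05, without a covariate. The script was tested on simulated data. Alternatives were DESeq2 1.42.0 (the tool of the study), RLE scaling, library size alone, no filter, a stricter filter (10 or more counts in all rats), the posterior mean, limma 3.58.1 on log2(TPM + 0.5), centering on proximal tubule markers and leaving out each rat. TPM separation and the endothelial covariate were added after seeing the data.

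The enzymes, the gene lists and the rule for naming genes were chosen with earlier results of these data known. All enzymes were named, and from each related list the genes with an unadjusted *P* below 0.05, or the smallest *P* values up to 4 genes. Aldh18a1, Cat, Agxt and the neighbours within 10000 bases were named after their values were seen. The motifs were also chosen after the expression values were known. Promoters (RefSeq, GRCr8) were matched by symbol for 9 of 10 enzymes. Hyi was not analysed here, and some genes covered by the naming rule are not reported here.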

Additional observations from a re-analysis of the deposited data

How the results depend on the processing

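Over all tested genes, edgeR called 0 (1224 at an unadjusted *P* below 0.05), DESeq2 182, edgeR without the filter on low counts 2 and with the endothelial covariate 18. Leaving out single rats gave 0 to 4 called genes and 2 to 6 enzymes with an unadjusted *P* below 0.05, against 3 with all rats, while the number of all genes below 0.05 ranged from 606 (without rat 88) to 1744 (without rat 69) and was 639 without rat 64. Prodh2 and Agxt2 kept an unadjusted *P* below 0.05 under every refit, and DESeq2 called them at 1.35 and 0.54. Centering on the proximal tubule markers turned the median of the enzymes to -0.035, Aldh4a1 to -0.035, Hoga1 to -0.13, Hao2 to -0.19 and Dao to -0.10. Prodh turned to 0.0025 without the filter and 0.064 with the covariate, and ranged from -0.30 to 0.22 with single rats left out. In the other 169 comparisons with an alternative, direction and side of the adjusted *P* threshold, or the size of a count, were kept. For values centered on the markers only direction was compared. No paired analysis was possible because the labels share no replicate numbers between the diets. The cause of these shifts was not tested.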
